A study of Arabidopsis thaliana with 22 samples.

Results

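Of 16722 single-gene probe sets named on the array, 89, each of a different gene, made up the genes raised by ABA in wild type and in ost1-2 sal1-8, here called restored genes. They were chosen by measured values: a highest of the 8 group means of at least 4 on the log2 scale, a mean wild type response to ABA (ABA minus mock, log2) of 1.2 to 3.9 with every ABA array above every mock array, an ost1-2 sal1-8 response of at least 0.9, and an ost1-2 mock mean less than 1 above that of wild type mock. With 7 cold and drought genes left out by name, of which KIN1 and KIN2 would otherwise have been chosen, 403 probe sets met the level condition and the conditions in wild type. Of these, 130 were too high in ost1-2 mock, whatever their ost1-2 sal1-8 response, 184 of the others missed the ost1-2 sal1-8 threshold, and 89 remained. Restored is the name of the rule, which set no condition on the ost1-2 response, and for AT3G02500 (1.12 in ost1-2, 0.90 in ost1-2 sal1-8) and WES1 (1.17 and 1.14) the ost1-2 response was at least that of ost1-2 sal1-8. Leaves were compared in 8 groups: ost1-2 sal1-8 ABA and mock, sal1-8 ABA and mock, and wild type ABA and mock with 3 arrays each, and ost1-2 ABA and mock with 2 arrays each. Plants aged 30 days were sprayed with 20 µM ABA in ethanol, or with ethanol as mock. Treatment time is labelled as 45 min, whereas the protocol text states 2 h. The sal1-8 allele, which the labels call alx8, is in the Col-0 ecotype and ost1-2 in Ler, the double mutant descends from a cross of both, and wild type plants were hybrids of the first generation between these ecotypes, so genotype and ecotype cannot be told apart in any comparison between genotypes. Each sample is described as a single leaf from a biological replicate.

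Abscisic acid (ABA) is the hormone that closes stomata and switches on protective genes when water is short. Its receptors hold back PP2C phosphatases, which frees kinases such as OST1, and these phosphorylate ion channels of guard cells and bZIP factors that act on ABA-responsive promoters. SAL1 is a chloroplast and mitochondrial phosphatase that degrades PAP, so sal1 mutants accumulate PAP, a retrograde signal that inhibits XRN exoribonucleases. The study asked whether loss of SAL1 restores ABA responses to a plant without OST1.

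The median log2 level of the 13843 probe sets tested lay between 5.40 and 5.79 on all 22 arrays. RCA, the Rubisco activase of green leaf tissue, was bright in all 8 groups, with means of 11.60 to 12.02. Of 11 guard cell markers listed, FAMA and BLUS1 carried a name and passed the filter. FAMA, which sets guard cell fate, averaged 6.68 in sal1-8 ABA and 6.86 in sal1-8 mock leaves, 7.46 in ost1-2 ABA and 7.30 in ost1-2 mock, 6.91 in ost1-2 sal1-8 ABA and 7.13 in ost1-2 sal1-8 mock, and 5.90 in wild type ABA and 7.10 in wild type mock leaves. BLUS1, a guard cell kinase of blue light responses, averaged 5.12 in sal1-8 ABA and 5.71 in sal1-8 mock leaves, 6.82 in ost1-2 ABA and 7.13 in ost1-2 mock, 6.72 in ost1-2 sal1-8 ABA and 6.63 in ost1-2 sal1-8 mock, and 5.13 in wild type ABA and 6.26 in wild type mock leaves. Both were called lower in the wild type response and in sal1-8 ABA against ost1-2 ABA (limma), and neither was called in the sal1-8, ost1-2 or ost1-2 sal1-8 response. The part of these markers in the results was not tested. Since whole leaves were sampled, fewer cells of a type and less RNA per cell cannot be told apart. Transcripts of SAL1 and OST1 themselves were not analysed here.

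The values that chose the genes are a description and carry no test. In wild type the median response was 1.91 (range 1.23 to 3.74), and 88 of 89 genes were called, at a Benjamini-Hochberg adjusted p under 0.05 from limma and a fold above 1.5, where 6.36% of all probe sets were called up and 5.61% down. The median in ost1-2 sal1-8 was 1.28 (range 0.90 to 3.75), with 56 genes called up and 0 down, where 1.40% of all probe sets were called up and 0.419% down. The ost1-2 mock mean exceeded that of wild type mock by a median of 0.64, up to the limit of the rule, and lay above it for 85 genes, none of them called (0.816% of all probe sets were called up and 1.11% down). With mock treatment sal1-8 against wild type gave 7 genes called higher and 13 called lower (11.4% and 9.80% of all probe sets), and ost1-2 sal1-8 against wild type gave 8 and 9 (10.7% and 6.06%). All ost1-2 sal1-8 ABA arrays lay above all ost1-2 sal1-8 mock arrays for 85 genes (8.82% of all probe sets), and the groups overlapped for CCR2, AT3G02500, AT5G57340 and AT5G66800.

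Some genes sat close to a threshold. Just inside the ost1-2 sal1-8 threshold were AT3G02500 at 0.90 and AT2G37580 at 0.91, and just outside it AT1G53560 at 0.8997 and AT3G55640 at 0.8992. Just inside the ost1-2 mock limit were AT2G47485 at 0.9998 and AT1G27200 at 0.97, and just outside AT1G29195 at 1.00 and SAG29 at 1.01. For the lower wild type limit the nearest genes inside were AT2G41330 at 1.23 and AT3G56880 at 1.25, and outside PUB43 at 1.19 and AT3G52920 at 1.18. At the upper wild type limit the nearest inside were AT5G05220 at 3.74 and AT1G69480 at 3.64, and the nearest outside was AT3G02480 at 4.92. For the level condition AT4G18422 and AT2G42560 were inside, with highest group means of 4.14 and 4.15, and AT5G45630 was outside at 2.91.

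**Figure D1:**
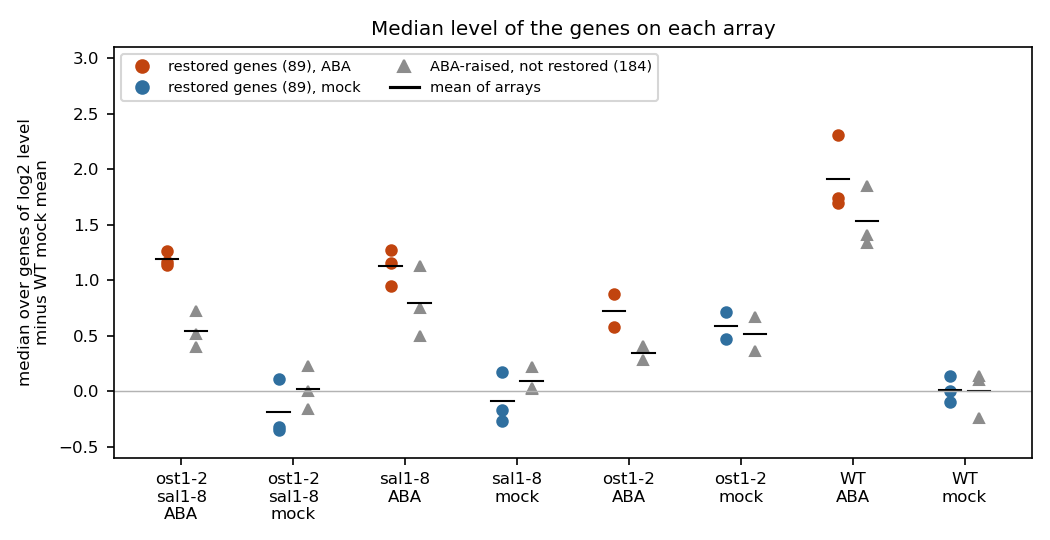
Median over genes of the log2 level minus the wild type mock mean (vertical axis) on each array of the 8 groups (horizontal axis), for the 89 restored genes (circles, red ABA and blue mock) and the 184 ABA-raised genes that were not restored (grey triangles), with the mean of arrays as a line. The sal1-8 ABA arrays lie between 0.95 and 1.27 and the sal1-8 mock arrays between -0.27 and 0.17, while the ost1-2 ABA arrays, at 0.57 and 0.87, are close to the ost1-2 mock arrays, at 0.47 and 0.71.

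Expressed as the median over the 89 genes relative to the wild type mock mean, the 3 ost1-2 sal1-8 ABA arrays stood at 1.16, 1.14 and 1.26, against -0.32, -0.35 and 0.11 for ost1-2 sal1-8 mock. The sal1-8 ABA arrays gave 0.95, 1.27 and 1.16, against -0.27, 0.17 and -0.17 for sal1-8 mock. In ost1-2 the ABA arrays gave 0.87 and 0.57 and the mock arrays 0.71 and 0.47. In both genotypes with sal1-8 all ABA arrays stood above all mock arrays, whereas the ost1-2 arrays of the 2 treatments interleaved. For ost1-2 sal1-8 the rule's condition on the response favours this separation. Wild type ABA arrays stood higher, at 2.31, 1.69 and 1.74, against 0.00, 0.13 and -0.10 for wild type mock, as the rule requires.

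The 6 sal1-8 arrays entered the choice of genes only through the highest of the 8 group means. For all 89 genes the highest mean of the 5 groups other than sal1-8 ABA, sal1-8 mock and ost1-2 ABA was at least 4.14, so the same genes would have been chosen without those groups, and the sal1-8 response could be tested. After ABA, 44 of 89 genes rose in sal1-8 and none fell (limma, adjusted p under 0.05 over all 13843 probe sets, fold above 1.5), where 1.38% of all probe sets were called up and 0.730% down. At an unadjusted p under 0.05, 81 genes were higher after ABA and 0 lower, compared with 6.64% and 6.8% of all probe sets. The sal1-8 difference was above 0 for all 89 genes, compared with 46.5% of all probe sets tested. Its median was 1.23, a fold of 2.34, with a range of 0.37 to 3.33, whereas the median over all probe sets was -0.02. For 73 of 89 genes every sal1-8 ABA array lay above every sal1-8 mock array, which held for 8.39% of all probe sets. Taken against the sal1-8 mock mean, the median response was 0.97 on ABA array 110, 1.43 on array 127 and 1.25 on array 135 (SD 0.23, n = 3). Between 27 and 52 genes were called when an array was left out of the fit, with 27 without sal1-8 mock array 106 and 29 without sal1-8 ABA array 135, and the median stayed between 1.06 and 1.38. With only the sal1-8 groups in the fit 29 genes were called, and with array weights 73. Of the 44 genes, 24 were called under every alternative other than leaving out an array, 24 without each sal1-8 array in turn, and 19 under all of these. The p-values measure the spread between these leaves, and nothing in the sources used here says how plants were shared between arrays. Sample numbers of mock and ABA arrays fell into separate runs, most of them shared by wild type and sal1-8, so run and ABA treatment cannot be told apart.

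Of the 184 genes not restored in ost1-2 sal1-8, 21 (11.4%) were called in sal1-8, with a median response of 0.70, and 177 were above 0. Of the 130 genes already high in ost1-2 mock, 43 (33.1%) were called, with a median of 1.12. These counts describe 3 sets that share the wild type condition, and the difference between the sets was not tested.

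**Figure D2:**
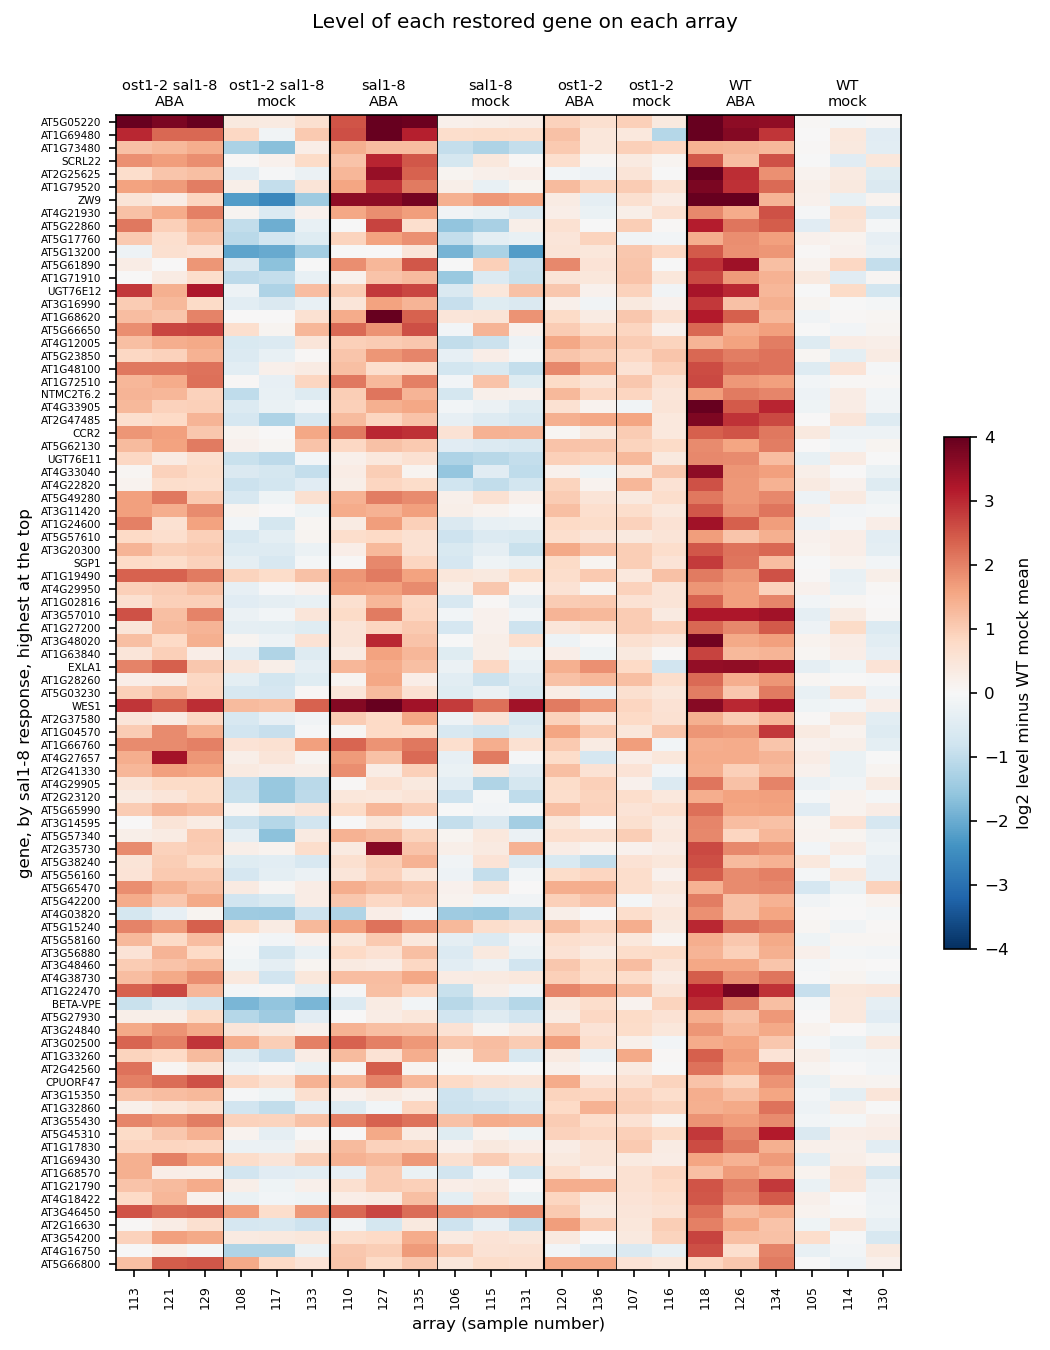
Log2 level of each of the 89 restored genes (rows, highest sal1-8 response at the top) on each of the 22 arrays (columns, labelled by sample number) minus the gene's wild type mock mean, with red above and blue below that mean. ABA arrays of ost1-2 sal1-8 and sal1-8 are redder than their mock arrays in most rows, and the 4 ost1-2 arrays look alike in most rows.

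AT5G05220, whose product has no annotated role in the sources used here, had the largest log2 difference in sal1-8. Its log2 level was 4.61, 6.34 and 6.0 on the sal1-8 ABA arrays, against 2.28, 2.31 and 2.38 on the sal1-8 mock arrays. These groups were far apart, and the log2 difference was 3.33 ± 0.32 (SE, n = 3 each, limma, adjusted p = 8.87e-06). Its mock level is near the low end of the scale, where no detection call was at hand, so no fold is given. In ost1-2 sal1-8 the gene stood at 6.82, 5.86 and 6.2 with ABA and 2.46, 2.44 and 2.73 with mock, and in wild type at 6.17, 5.66 and 5.62 with ABA and 2.11, 2.00 and 2.12 with mock. The ost1-2 arrays all remained low, at 2.99 and 2.72 with ABA and 3.03 and 2.47 with mock.

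AT1G73480, an alpha/beta-hydrolase and the brightest of the genes in wild type mock, differed between genotypes in its mock level rather than its ABA level. With ABA it reached 11.10, 10.89 and 10.90 in sal1-8, against 8.72, 8.43 and 8.71 with mock, a rise of 2.34 ± 0.33 (SE, adjusted p = 0.0005, limma). The ABA arrays of ost1-2 sal1-8, at 10.82, 10.97 and 11.12, and of wild type, at 11.06, 11.03 and 10.96, were almost at the same level. Mock arrays stood at 8.40, 8.0 and 9.93 in ost1-2 sal1-8, 10.62 and 10.48 in ost1-2, and 9.70, 10.06 and 9.24 in wild type. The gene was thus high in ost1-2 without ABA, and ost1-2 ABA arrays, at 10.71 and 10.13, overlapped those of ost1-2 mock.

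The other genes with the highest sal1-8 responses were AT1G69480 (2.60), SCRL22 (2.31), AT2G25625 (2.2), AT1G79520 (2.17), ZW9 (2.09), AT4G21930 (2.02), AT5G22860 (1.99) and AT5G17760 (1.99). SCRL22 belongs to a family of small secreted cysteine-rich proteins related to the self-incompatibility ligand SCR, AT5G22860 encodes a serine carboxypeptidase and AT5G17760 an AAA-type ATPase. All of them passed the test except AT2G25625 (adjusted p = 0.0696), ZW9 (adjusted p = 0.0563) and AT5G22860 (adjusted p = 0.0956, limma), and SCRL22 did not pass with only the sal1-8 groups in the fit (adjusted p = 0.0816). For AT5G22860 the groups overlapped, with 6.55, 9.26 and 7.25 on the sal1-8 ABA arrays and 5.0, 5.27 and 6.82 on the sal1-8 mock arrays. The sal1-8 mock arrays of SCRL22, at 1.74, 2.86 and 2.47, were near the low end of the scale. At the other end AT5G66800 (0.37), AT4G16750 (0.51), AT3G54200 (0.53), AT2G16630 (0.55) and AT3G46450 (0.60) had the lowest sal1-8 responses, none of them called.

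Among genes whose products act in transcription, AT1G19490, a bZIP family protein, rose in sal1-8 by 1.30 ± 0.22 (SE, adjusted p = 0.00376, limma). The sal1-8 ABA arrays read 6.69, 7.0 and 6.54, against 5.36, 5.31 and 5.67 with mock, without overlap. In ost1-2 they read 5.61 and 5.97 with ABA and 5.35 and 6.09 with mock, so the treatments overlapped. AT3G56880, a VQ motif protein of a family that partners WRKY factors, rose by 0.99 (adjusted p = 0.0446, limma), a call that was lost on leaving out any sal1-8 array other than mock array 115, and with only the sal1-8 groups in the fit (adjusted p = 0.153) or all named probe sets (0.0506). AT5G61890, an ethylene response factor, had a response of 1.86 with wide spread (adjusted p = 0.170), with 7.64, 7.13 and 8.27 on the ABA arrays and 5.77, 6.73 and 4.94 on the mock arrays of sal1-8.

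Of the 4 genes assigned here to phosphorylation and GTPase signalling only AT4G29950, a RabGAP/TBC protein that acts on Rab GTPases, was called in sal1-8, with a response of 1.27 (adjusted p = 0.00932, limma). The 45 genes to which no role was assigned were not placed in this or the other groups, so the groups may be incomplete. Its call was lost with only the sal1-8 groups in the fit (0.0812) and without sal1-8 mock array 131 (0.0688) or 106 (0.0681) or sal1-8 ABA array 135 (0.0504). The small GTPase SGP1 had a response of 1.33 (adjusted p = 0.0734), the PP2C phosphatase AT5G27930 0.93 (adjusted p = 0.0614) and the protein kinase AT1G33260 0.90 (adjusted p = 0.444). AT5G27930 nonetheless had sal1-8 arrays that did not overlap, at 7.18, 7.44 and 7.60 with ABA, against 6.39, 6.64 and 6.39 with mock.

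Genes of ubiquitin ligases and a stress-associated zinc finger formed a group of 4, of which 3 rose in sal1-8. AT4G22820, which carries the A20/AN1 zinc fingers found in stress-associated proteins, rose by 1.45 (adjusted p = 0.0133), AT2G37580, a RING-H2 protein of the ATL family, by 1.22 (adjusted p = 0.0218) and AT5G42200, another RING-H2 ligase of that family, by 1.02 (adjusted p = 0.0305, limma). The call of AT2G37580 was lost without sal1-8 mock array 131 (adjusted p = 0.133), mock array 106 (0.109) or ABA array 135 (0.123) and with only the sal1-8 groups in the fit (0.137). That of AT5G42200 was lost whichever sal1-8 array was left out, with adjusted p of 0.0729 to 0.122, and that of AT4G22820 without sal1-8 mock array 106 (0.0507) or sal1-8 ABA array 135 (0.0553) or 127 (0.0787). The RING protein AT1G63840 had a response of 1.24 (adjusted p = 0.0884).

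LEA proteins accumulate in drying tissue and seeds. AT2G23120, a LEA family protein and among the brightest genes, rose in sal1-8 to 10.06, 10.03 and 10.12 with ABA, against 8.76, 9.52 and 8.59 with mock, a response of 1.11 ± 0.20 (SE, adjusted p = 0.00515, limma). With only the sal1-8 groups in the fit its adjusted p was 0.0872. On the ost1-2 arrays AT2G23120 stood at 10.29 and 10.49 with ABA and 10.30 and 10.02 with mock, as high as sal1-8 with ABA. AT3G54200, a LEA hydroxyproline-rich glycoprotein, had a response of 0.53 (adjusted p = 0.586).

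In the group of 7 genes of cell wall and glycosylation the sal1-8 median was 0.87, and 3 genes were called. AT5G49280, a hydroxyproline-rich glycoprotein, rose by 1.45 (adjusted p = 0.0133), AT3G15350, a glycosyltransferase of the Core-2/I-branching family, by 0.87 (adjusted p = 0.0314) and AT3G55430, a glycoside hydrolase, by 0.83 (adjusted p = 0.00826, limma). The call of AT3G55430 was lost without sal1-8 mock array 106 (adjusted p = 0.0681) or ABA array 127 (0.0653) and with only the sal1-8 groups in the fit (0.0672). AT3G15350 lost its call whichever sal1-8 array was left out (0.0514 to 0.179), and AT5G49280 without sal1-8 mock array 131 (0.0618) or 106 (0.0724) or sal1-8 ABA array 135 (0.0553) or 127 (0.0800). AT1G32860, a glucan endo-beta-glucosidase, had a response of 0.84 (adjusted p = 0.153), and EXLA1, an expansin-like protein, 1.24 (adjusted p = 0.114).

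Genes of lipids and transport numbered 9, with a sal1-8 median of 0.97 and 4 calls. Besides AT1G73480 these were AT5G65990, an amino acid transporter (1.09, adjusted p = 0.00646), AT3G48460, a GDSL lipase (0.97, adjusted p = 0.0162), and AT3G24840, a Sec14 family lipid-binding protein (0.93, adjusted p = 0.00615, limma). The call of AT5G65990 was lost without sal1-8 ABA array 127 (adjusted p = 0.0559), and that of AT3G48460 with only the sal1-8 groups in the fit (0.0872) and without sal1-8 mock array 131 (0.0965) or 106 (0.0577) or sal1-8 ABA array 135 (0.0936). AT5G15240, also an amino acid transporter, and AT3G46450, also of the Sec14 family, had responses of 1.00 (adjusted p = 0.112) and 0.60 (adjusted p = 0.307). AT3G46450 also differed between genotypes with mock, at 8.92, 8.88 and 8.96 in sal1-8, against 7.24, 7.15 and 6.93 in wild type.

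The 4 genes of hormone and phenolic metabolism had the highest wild type median of the annotated groups, 2.45, and a sal1-8 median of 1.53. CCR2, a cinnamoyl-CoA reductase of lignin monomer synthesis, rose in sal1-8 by 1.57 (adjusted p = 0.0225), and UGT76E11, a UDP-glycosyltransferase, by 1.5 (adjusted p = 0.00426, limma). The call of CCR2 was lost with only the sal1-8 groups in the fit (0.0678) and without sal1-8 mock array 106 (0.159) or sal1-8 ABA array 135 (0.0981) or 127 (0.124). UGT76E12, a paralog of UGT76E11 with a single protein-coding gene between them on the chromosome, had a response of 1.82 whose arrays overlapped, with 5.68, 7.48 and 7.34 with ABA and 4.08, 5.12 and 5.83 with mock (adjusted p = 0.217). Probes of such close paralogs can bind transcripts of both, so their values are uncertain. WES1, a GH3 enzyme that couples amino acids to auxin, had the highest mock level in sal1-8 relative to wild type of all 89 genes. It stood at 8.61, 9.94 and 8.28 in sal1-8 ABA and 7.74, 7.13 and 8.28 in sal1-8 mock, so the groups met at 8.28, while wild type had 8.58, 7.93 and 8.24 with ABA and 4.76, 4.83 and 5.21 with mock.

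Proteases, redox proteins and other annotated products made up 11 genes with a sal1-8 median of 1.55, and 6 were called. AT5G13200, a GEM-like protein, rose by 1.95 (adjusted p = 0.000488), NTMC2T6.2 by 1.61 (adjusted p = 0.00423), and AT5G62130, a Per1-like protein, by 1.55 (adjusted p = 0.000956, limma). With only the sal1-8 groups in the fit NTMC2T6.2 was not called (0.0860). NTMC2T6.2 neighbours AT3G14595, an L18ae family gene and also a restored gene, on the chromosome, and AT3G14595 had a response of 1.08 (adjusted p = 0.0565). BETA-VPE, a vacuolar processing enzyme, and AT4G33040, a glutaredoxin, had responses of 0.93 (adjusted p = 0.172) and 1.47 (adjusted p = 0.0641).

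To 45 genes no role was assigned here, and 22 of them were called in sal1-8, with a median of 1.26. AT1G27200 (1.26, adjusted p = 0.0314), AT1G48100 (1.63) and AT2G47485 (1.59) were called, whereas AT2G41330 (1.15), AT1G22470 (0.94) and AT3G02500 (0.92) were not. The call of AT1G27200 was lost with only the sal1-8 groups in the fit (0.0918) and without sal1-8 mock array 131 (0.159) or 106 (0.169) or sal1-8 ABA array 135 (0.137) or 127 (0.120). AT2G42560 was high on single arrays, with 2.27, 4.64 and 2.3 in sal1-8 ABA, against 2.19, 2.17 and 2.18 in sal1-8 mock. In ost1-2 sal1-8 the gene read 4.38, 2.29 and 2.67 with ABA and 2.00, 2.16 and 1.94 with mock. Only array 127 of sal1-8 and array 113 of ost1-2 sal1-8 came near the wild type ABA arrays, at 4.39, 3.77 and 4.29.

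In ost1-2, which lacks functional OST1, 0 of 89 genes were called in either direction after ABA (limma), where 0.0217% of all probe sets were called up and 0.0144% down. At an unadjusted p under 0.05, 12 genes were higher after ABA and 1 lower, compared with 4.83% and 4.5% of all probe sets. Array weights called 1 gene. The median difference was 0.12, and 56 of 89 genes were above 0. Both ost1-2 ABA arrays lay above both mock arrays for 24 genes of 89, against 22% of all probe sets. The limit that the rule set on ost1-2 mock works towards a rise here.

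The widest ost1-2 differences belonged to EXLA1, at 6.87 and 7.25 with ABA against 6.23 and 4.68 with mock (1.60 ± 0.47, SE, adjusted p = 0.237, limma), whose ABA arrays lay above both mock arrays, although the mock arrays were far apart. AT1G69480 (1.18), WES1 (1.17), AT3G02500 (1.12) and AT5G66800 (1.04) followed. On the negative side were AT5G38240 (-1.30, adjusted p = 0.234), AT4G33040 (-0.74) and AT1G33260 (-0.71). AT5G38240 read 4.21 and 3.85 with ABA, against 5.39 and 5.27 with mock in ost1-2, without overlap, while in sal1-8 it read 5.46, 5.78 and 6.19 with ABA and 4.66, 5.36 and 4.26 with mock.

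**Figure D3:**
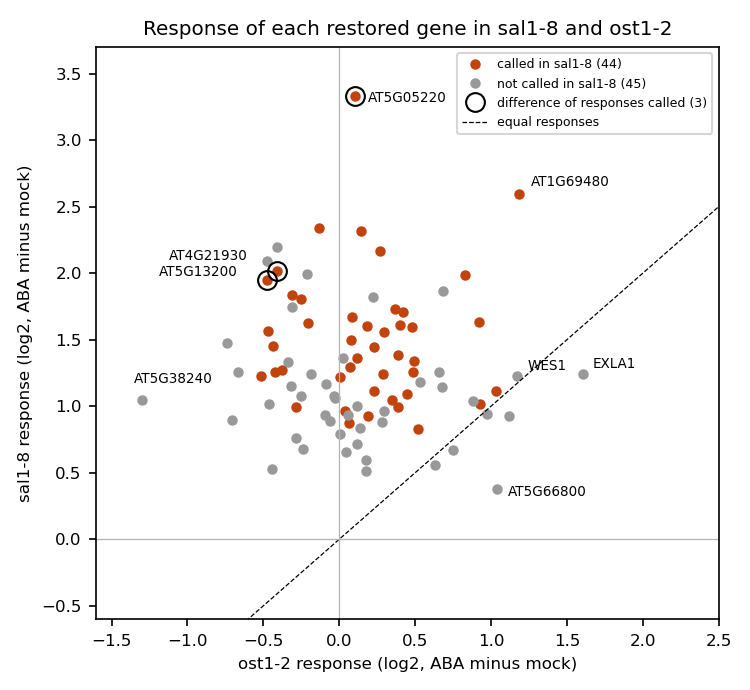
Sal1-8 response (vertical axis, log2 ABA minus mock) against ost1-2 response (horizontal axis, log2 ABA minus mock) of the 89 restored genes, with the 44 genes called in sal1-8 in red, the other 45 in grey, circles around the 3 genes whose difference of responses was called, and a dashed line of equal responses. All points lie above 0 on the vertical axis and 83 lie above the dashed line.

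The sal1-8 response exceeded the ost1-2 response for 83 of 89 genes, compared with 49.8% of all probe sets, with a median difference of 1.16 against -0.00. The difference of responses itself passed the test for 3 genes, all higher in sal1-8 (limma), where 0.123% of all probe sets were called up and 0.0433% down. At an unadjusted p under 0.05 it was higher for 51 genes and lower for 0, compared with 6.7% and 6.17% of all probe sets. The sal1-8 response also exceeded the ost1-2 response for 168 of the 184 genes not restored (91.3%, median difference 0.85). The same held for 126 of the 130 genes high in ost1-2 mock (96.9%, median difference 1.47). Of these sets 0 and 9 genes were called higher, in that order, so the direction is not particular to the restored genes. The ost1-2 mock arrays in this difference were also used by the rule, whose upper limit on them favours a higher ost1-2 response and so a smaller difference. This difference has 2 arrays in each ost1-2 group, and leaving out an array gave 0 to 9 genes, with 0 without ost1-2 mock array 107 or ost1-2 ABA array 136 and 9 without sal1-8 ABA array 110. Array weights gave 34.

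The 3 genes were AT5G05220 (3.22 ± 0.51, adjusted p = 0.0105), AT5G13200 (2.43 ± 0.43, adjusted p = 0.0230) and AT4G21930 (2.43 ± 0.47, adjusted p = 0.0418, SE, limma). With only the groups compared in the fit, the adjusted p of AT5G05220 was 0.0516. All 3 calls were lost without ost1-2 mock array 107 (adjusted p of 0.0947 for AT5G05220, 0.121 for AT5G13200 and 0.100 for AT4G21930) or ost1-2 ABA array 136 (0.150, 0.183 and 0.316 in the same order), and those of AT5G13200 and AT4G21930 also without several other arrays. AT5G13200 read 8.62, 8.66 and 9.11 in sal1-8 ABA, against 6.77, 7.37 and 6.41 in sal1-8 mock. In ost1-2 it read 9.15 and 9.10 with ABA, against 9.73 and 9.47 with mock. The sal1-8 groups were apart with ABA higher. The ost1-2 groups, of 2 arrays each, were apart with ABA lower, but that response was not called (-0.47, adjusted p = 0.735, limma).

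AT4G21930 read 4.42, 4.72 and 4.52 in sal1-8 ABA, against 2.71, 2.59 and 2.3 in sal1-8 mock. In ost1-2 it read 3.14 and 2.60 with ABA and 3.08 and 3.47 with mock. The treatments overlapped in ost1-2 and were far apart in sal1-8, and in wild type the gene read 4.79, 4.36 and 5.40 with ABA, against 2.8, 3.46 and 2.32 with mock. Its mock levels, like those of AT5G05220, are near the low end of the scale, where no detection call was at hand. EXLA1, WES1, AT5G42200 and AT4G29905, in contrast, had differences of responses between -0.36 and 0.09, and their responses were 1.02 to 1.24 in sal1-8 and 0.93 to 1.60 in ost1-2.

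With mock treatment, the genes stood higher in ost1-2 than in sal1-8. The ost1-2 mock mean was above the sal1-8 mock mean for 74 of 89 genes, by a median of 0.60, and 33 were called higher and 5 lower (limma), where 13.4% of all probe sets were called higher and 13.9% lower. The rule's limit on ost1-2 mock works against a higher level there and favours a lower one, so the genes called lower are a description. This comparison was added after the values were seen. These are the same sal1-8 mock arrays as in the sal1-8 response. Without an array, 22 to 36 genes were called higher, with 22 without ost1-2 mock array 116. AT5G13200 had the widest gap, 2.75 (adjusted p = 2.02e-06), followed by UGT76E11 (1.94, adjusted p = 8.46e-05) and AT1G73480 (1.93, adjusted p = 0.000643). UGT76E11 read 8.30 and 7.40 in ost1-2 mock, against 5.76, 5.91 and 6.07 in sal1-8 mock. WES1 was the widest in the other direction, which the rule favours (-2.06), at 5.79 and 5.52 in ost1-2 mock, against 7.74, 7.13 and 8.28 in sal1-8 mock. AT3G55430, AT3G46450, AT3G02500 and AT4G16750 were the other genes called lower in ost1-2 mock.

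After ABA, the sal1-8 ABA mean was above the ost1-2 ABA mean for 57 genes, by a median of 0.49, and 22 genes were called higher and 3 lower (limma), where 11.5% of all probe sets were called higher and 10.7% lower. Without ost1-2 ABA array 136 only 12 genes were called higher. With all arrays, 50 of the 184 genes not restored (27.2%) were called higher and 12 lower, and 25 of the 130 high in ost1-2 mock (19.2%) were called higher and 15 lower. Of the 33 restored genes higher in ost1-2 mock than in sal1-8 mock, 30 were not called in either direction between sal1-8 ABA and ost1-2 ABA. Most of all probe sets were likewise not called there, and a missing call does not show equal levels. ZW9 had the widest difference, with 9.19, 9.19 and 9.45 in sal1-8 ABA, against 5.96 and 5.27 in ost1-2 ABA (3.66 ± 0.62, SE, adjusted p = 0.000260). Its level also separated the genotypes with mock, at 3.38, 3.06 and 4.20 in ost1-2 sal1-8, 7.04, 7.35 and 7.16 in sal1-8, 6.28 and 5.91 in ost1-2, and 5.79, 5.34 and 5.75 in wild type. AT2G16630, an extensin-like cell wall protein, had the lowest value (-1.49 ± 0.33, SE, adjusted p = 0.00252), with 8.82, 8.25 and 9.35 in sal1-8 ABA, against 10.63 and 9.97 in ost1-2 ABA, and its adjusted p without ost1-2 ABA array 120 was 0.0659. AT1G32860 (-1.01) and AT1G48100 (-0.82) were the other genes called lower.

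**Figure D4:**
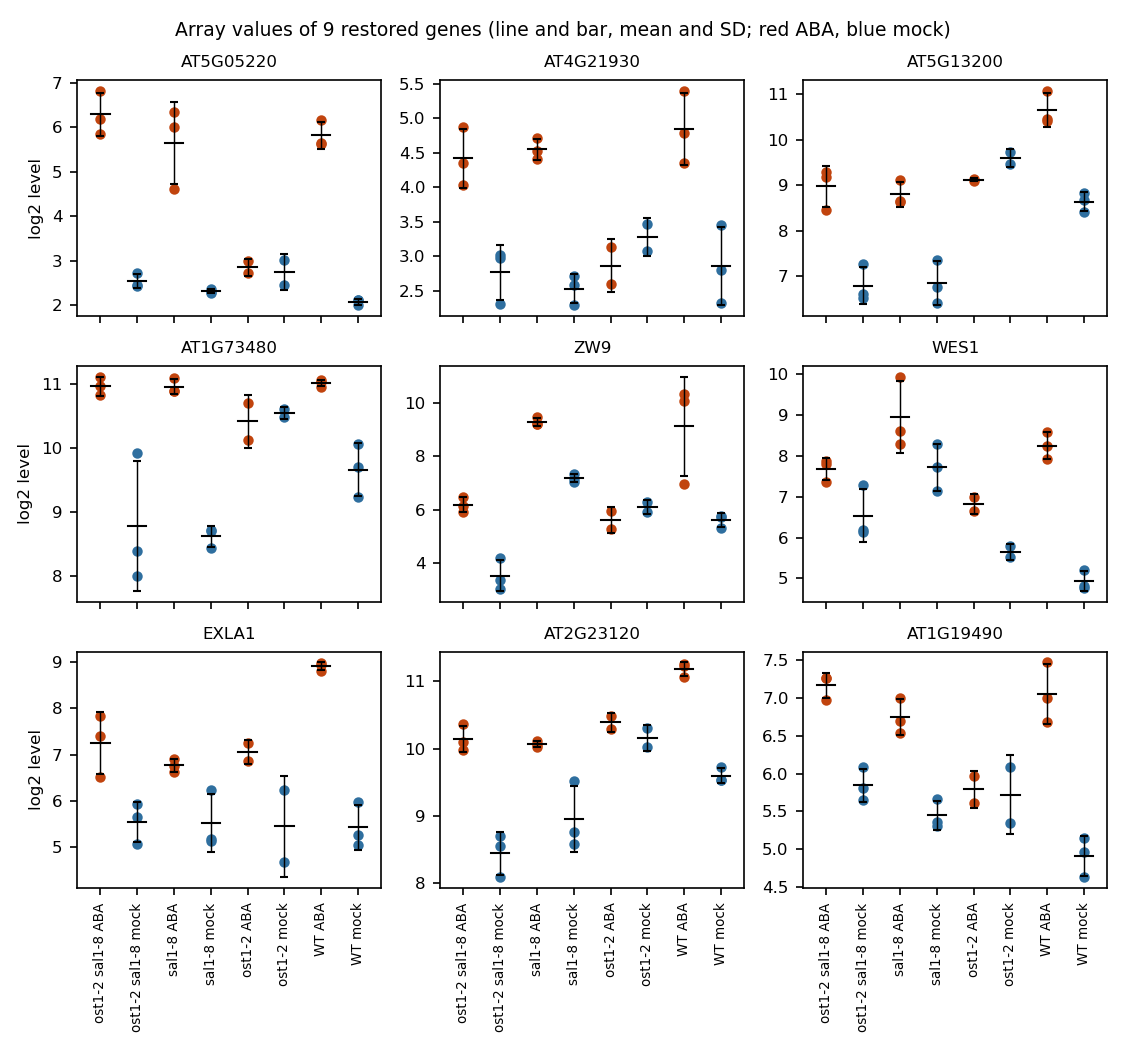
Log2 level of 9 restored genes (vertical axes, scale set per gene and not starting at 0) on each array of the 8 groups (horizontal axes), with points for arrays (red ABA, blue mock), a line at the mean and bars of SD. AT5G05220 and AT4G21930 stay low in both ost1-2 groups, AT5G13200, AT1G73480 and AT2G23120 are high in both ost1-2 groups, and ZW9 and WES1 differ between genotypes with mock treatment.

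Set beside wild type, responses in both sal1-8 backgrounds were smaller for most genes, which the wild type condition of the rule favours. The sal1-8 response was below that of wild type for 83 of 89 genes and below that of ost1-2 sal1-8 for 55. The rule's lower limit on the ost1-2 sal1-8 response favours the second count, which is a description. After ABA, sal1-8 against wild type gave 1 gene called higher and 41 called lower (12.4% and 11.1% of all probe sets), ost1-2 sal1-8 against wild type gave 3 higher and 40 lower (17.0% and 9.76%), and ost1-2 against wild type gave 0 higher and 56 lower (5.90% and 4.67%). These comparisons use wild type arrays that chose the genes and are given as a description. Between the sal1-8 backgrounds with ABA, 3 genes (3.37%) were higher and 1 (1.12%) lower in ost1-2 sal1-8 than in sal1-8. Over all probe sets the shares were 2.8% and 2.59%. The rule also used the ost1-2 sal1-8 ABA arrays, which favours a higher level there, so these counts are a description too. The lower gene was ZW9, at 6.15, 5.93 and 6.49 in ost1-2 sal1-8 ABA, against 9.19, 9.19 and 9.45 in sal1-8 ABA.

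Across the 89 genes the sal1-8 response correlated with that of ost1-2 sal1-8 (Pearson's r = 0.67, Spearman's rho = 0.59) and of wild type (r = 0.49, rho = 0.44), while the values for ost1-2 were r = -0.07 and rho = -0.10. Genes are not independent replicates, the ost1-2 sal1-8 and wild type responses were bounded by the rule, and no test was made. Of the 44 genes called in sal1-8, 38 were also among the 56 called in ost1-2 sal1-8, a count that the rule's condition on the ost1-2 sal1-8 response favours. Over all probe sets 1.38% were called up in sal1-8 and 1.40% in ost1-2 sal1-8, and their overlap was not counted.

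AT5G05220 (3.75), ZW9 (2.64), UGT76E12 (2.55), AT5G22860 (2.55), AT1G22470 (2.24), AT1G73480 (2.19), AT5G13200 (2.18) and AT1G48100 (2.09) had the highest ost1-2 sal1-8 responses. AT1G22470 read 5.98, 6.26 and 4.97 with ABA in ost1-2 sal1-8, against 3.56, 3.67 and 3.28 with mock, but 3.58, 4.83 and 4.48 with ABA in sal1-8, against 2.73, 3.85 and 3.50 with mock. The treatments were apart in the double mutant and overlapped in sal1-8 (0.94, adjusted p = 0.320, limma).

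The known genes of ABA signalling could be followed only in part, because 17 of 191 genes on 17 lists carried a name on a single-gene probe set and passed the filter, and none of them was a restored gene. Of 7 genes of dehydration and cold proteins, 4 were called up in sal1-8 and none down, and 0 were called in ost1-2. The 4 were all left out of the restored genes by name, with sal1-8 responses of 2.71 for KIN1, 2.01 for LTI30, 1.48 for COR47 and 1.47 for KIN2. COR15A (0.88) and COR15B (0.54), also left out by name, were not called. Of 3 ubiquitin ligases of ABA and drought signalling PUB19, likewise left out by name, rose in sal1-8 by 3.63 (adjusted p = 5.76e-06, limma), and its ost1-2 difference was 0.03. WSD1, a wax ester synthase, also rose in sal1-8 (1.65, adjusted p = 0.0290), and its ost1-2 difference was 1.03 (adjusted p = 0.519). The zinc finger factor ZAT10 (1.25 in sal1-8, adjusted p = 0.170), LEA18 (0.38), PUB22, PUB23, the clock gene GI and the bZIP factor EEL were not called in sal1-8 or ost1-2.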

How the data were processed

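Leaf RNA of 22 samples in 8 groups was hybridised to Affymetrix Arabidopsis Gene 1.0 ST arrays. The deposited values are log2 intensities that the authors background corrected, quantile normalized and summarised per probe set by RMA. The submitters' processing notes name oligo 1.28.0, R 3.1.0, limma 3.20.1, Affymetrix Power Tools and Partek. No raw intensities or counts were used, so precision rests on how many arrays a group has. Gene names came from a probe-gene table: of 38408 probe sets 17481 were named and 16722 had a single gene. The 0 columns of other samples were left out.

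Group means of all 8 groups were estimated in 1 limma 3.58.1 fit (R 4.3.3) over the 13843 named probe sets whose highest group mean was at least 3. Adjusted p-values are Benjamini-Hochberg over all of them, and called means an adjusted p under 0.05 and a fold above 1.5. The fit was tested on simulated data. The members, gene lists and tests were chosen with earlier results of these data known, and ost1-2 mock minus sal1-8 mock was added after seeing the data. Named genes were those with the highest and lowest responses in sal1-8 and ost1-2, the highest in ost1-2 sal1-8, the brightest, regulators, paralogs and those nearest a threshold; the other genes named by role were chosen after their values were seen. Alternatives changed the probe sets tested, the fold, the arrays fitted, the variance model, array weights, the normalization and the membership, took runs of sample numbers as a random block, or left out an array. Promoter motifs, SAL1 and OST1 were not analysed here.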

Additional observations from a re-analysis of the deposited data

Results flagged for a closer look

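The sal1-8 and ost1-2 responses to ABA differed, by a test of the difference itself in limma, for 3 of the 89 genes. AT5G05220 had a difference of 3.22 (adjusted p = 0.0105), AT5G13200 of 2.43 (adjusted p = 0.0230) and AT4G21930 of 2.43 (adjusted p = 0.0418). Each ost1-2 group has 2 arrays, and the rule that chose the genes limited ost1-2 mock, which works towards a smaller difference. Without ost1-2 mock array 107 the adjusted p was 0.0947, 0.121 and 0.100 for AT5G05220, AT5G13200 and AT4G21930 in that order, and without ost1-2 ABA array 136 it was 0.150, 0.183 and 0.316. Without ost1-2 ABA array 120 it was 0.0392, 0.0715 and 0.0696. AT4G21930 also missed the threshold without sal1-8 mock array 131 (0.0904), 115 (0.0520) or 106 (0.0831), sal1-8 ABA array 135 (0.0942) or 127 (0.110), or ost1-2 mock array 116 (0.131), and AT5G13200 without sal1-8 mock array 131 (0.0577) or 106 (0.0600) or sal1-8 ABA array 135 (0.0709). AT5G05220 was lost with only the groups compared in the fit (0.0516).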

How the results depend on the processing

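Of 44 named genes 20 were called in sal1-8, of which 14 kept their call under every alternative other than leaving out an array and 14 under every fit without a sal1-8 array, and none reversed. With only the groups compared in the fit, 29 restored genes were called in the sal1-8 response and 6 in the difference between the sal1-8 and ost1-2 responses. Array weights gave 73 and 34, and 1 in the ost1-2 response, and a highest group mean of at least 4 gave 5 for the difference of responses. Leaving out an array gave 27 to 52 genes for the sal1-8 response, 12 to 26 for sal1-8 ABA over ost1-2 ABA, 0 to 9 for the difference of responses, 0 to 0 for the ost1-2 response and 22 to 36 for ost1-2 mock over sal1-8 mock, and a median sal1-8 response of 1.06 to 1.38. The cause was not tested. After a further quantile normalization the rule found 101 genes, 87 of them among the 89, and 79 after centring each array, 78 of them among the 89. No paired analysis was possible because the labels give no replicate number that groups share. With runs of consecutive sample numbers, some of which hold several genotypes, as a random block (correlation 0.0162), the counts were 44, 22, 3, 0 and 33 for the sal1-8 response, sal1-8 ABA over ost1-2 ABA, the difference of responses, the ost1-2 response and ost1-2 mock over sal1-8 mock, as without it. Every run held either mock arrays or ABA arrays and never both. The block therefore cannot separate run from treatment, and these counts do not test an effect of run on the responses.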
